A study of Mus musculus with 16 samples.

Results

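Histone genes were described in RNA from the cortex and the striatum of 10-day-old mice. They were chosen by symbol, as the protein-coding genes whose names begin with Hist1h, Hist2h, Hist3h, Hist4h or H2af, together with H3f3a, H3f3b, H1f0 and H1fx. This gave 80 of the 53801 genes in the count table, of which 21967 are protein-coding. Of these, 67 carry Hist names and are referred to as replication-dependent, with 6 H1, 18 H2A, 18 H2B, 12 H3 and 13 H4 genes, and the other 13 are referred to as variants, with 2 H1, 9 H2A and 2 H3 genes. The Hist names belong to clusters, with 54 genes on chromosome 13, 10 on chromosome 3, 2 on chromosome 11 and 1 on chromosome 6, whereas no autosome holds more than 2 of the variants and 3 lie on chromosome X. The class follows the symbol alone.

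The study deleted Trrap, which encodes an adaptor protein shared by histone acetyltransferase complexes, in neurons of the forebrain. Control mice were Trrap Fl/+ and Trrap-FBΔ mice were Trrap Fl/Fl, all carried Camk2-Cre tg on the C57BL6/J-129sv background, and 9 mice gave 4 libraries for each genotype in each tissue, 16 in all. Control cortices came from mice 55, 58, 63 and 64, control striata from mice 58, 63, 64 and 65, and both Trrap-FBΔ tissues from mice 57, 59, 60 and 61. The controls held 2 females and 2 males in the cortex and 1 female and 3 males in the striatum, and each Trrap-FBΔ group held 3 females and 1 male. Camk2-Cre acts in pyramidal neurons, whereas the RNA came from whole pieces of tissue, and no group without the transgene was analysed here.

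Libraries were made from polyadenylated RNA, and between 28743866 and 48761429 reads were counted on genes in each. Levels are given in CPM, a gene's reads relative to the TMM-scaled library total, and differences as log2 fold changes from the quasi-likelihood test of edgeR with p adjusted over all genes tested. Trrap itself was at 153 ± 15.6 CPM (SD, n = 4) in control and 135 ± 10.3 in Trrap-FBΔ cortices, a log2 fold change of -0.18 (standard error (SE) 0.0752, adjusted p = 0.0826), and at 146 ± 5.73 and 141 ± 5.88 CPM in the striata (-0.04, SE 0.0477, adjusted p = 0.519). Counts over the whole gene therefore did not pass the test in either tissue, and the group names follow the labels. The study itself reports an efficient deletion at this age, from western blots of the forebrain and from qPCR. Those measurements were not part of the data used here. All 8 cortical marker genes were lower in the striatum of both genotypes. With the genotype, 5 of the 8 were lower in Trrap-FBΔ than in control striata (median log2 fold change -0.71), where they summed to between 262 and 373 CPM and between 356 and 593 CPM, and 1 of the 8 was lower in the cortex (median -0.10). The summed level of 9 striatal markers ranged from 257 to 698 CPM in control cortices and from 228 to 1138 CPM in control striata. Of the 9, 2 were higher in control striata, where 20.3% of all genes were higher. In Trrap-FBΔ mice, 5 were higher in the striatum and 1 was lower, against 27.4% of all genes in each direction. Their sums there were 312 to 421 CPM in cortices and 348 to 558 CPM in striata. These markers therefore did not separate the tissues in every library.

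Replication-dependent histone genes supply the histones that package new DNA during S phase. Their mRNAs as a rule end not in a poly(A) tail but just after a short stem-loop, which is bound by the stem-loop binding protein Slbp and cut with the help of the U7 small nuclear RNP, and a selection for poly(A) tails loses such ends. Variant histones are made throughout the cell cycle from polyadenylated mRNAs, so that they can supply new histones in cells that no longer divide, such as neurons. The variants described here are H1, H2A and H3 genes, without an H2B or H4 gene among them. A few replication-dependent genes are also known to give polyadenylated transcripts in cells that leave the cell cycle.

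The stem-loop is the mark of the replication-dependent class and is shown for the members that changed with the genotype. It was found after the stop codon in an annotated coding transcript of 46 of the 67 replication-dependent genes (52 of the 67 have more than 16 annotated bases there), in 1 of 13 variants, H2afx, and in 80 of 20862 other protein-coding genes (0.383%). The commonest form, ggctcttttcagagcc, was shared by 26 genes. The stem-loop of 16 bases is in capitals, with 5 bases on each side, 5′ to 3′ on the transcript.
Hist3h2a: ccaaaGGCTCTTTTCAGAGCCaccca
Hist3h2ba: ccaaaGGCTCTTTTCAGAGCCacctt
Hist1h1c: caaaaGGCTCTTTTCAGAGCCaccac
Hist2h3c2: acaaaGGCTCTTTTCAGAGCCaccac
Hist2h4: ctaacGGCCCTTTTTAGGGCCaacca
H2afx: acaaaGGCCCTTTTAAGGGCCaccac
The first 4 hold the commonest form, whereas the H4 gene Hist2h4 and the variant H2afx differ from it in the stem and from each other in the loop.

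Promoters are shown for 2 genes that fell together, Hist3h2a and Hist3h2ba, whose annotated ends lie 5151 bases apart on chromosome 11, and for 2 that rose, Hist1h1c and H3f3b. Each is the window around the start in RefSeq (GRCm38.p6) on the strand of the gene, which for H3f3b lies inside the gene as Ensembl draws it, with matches in capitals to TATAAA, to CCAAT, to the octamer ATTTGCAT and to the GC box GGGCGG on either strand.
Hist3h2a, chr11:58954435-58954734, strand +: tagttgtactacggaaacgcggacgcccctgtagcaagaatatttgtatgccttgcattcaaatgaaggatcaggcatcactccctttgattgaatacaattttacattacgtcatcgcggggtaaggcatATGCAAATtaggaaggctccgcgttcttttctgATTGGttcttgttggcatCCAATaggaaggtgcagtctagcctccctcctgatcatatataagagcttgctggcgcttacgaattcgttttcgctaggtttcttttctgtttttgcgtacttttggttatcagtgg
Hist3h2ba, chr11:58948661-58948960, strand +: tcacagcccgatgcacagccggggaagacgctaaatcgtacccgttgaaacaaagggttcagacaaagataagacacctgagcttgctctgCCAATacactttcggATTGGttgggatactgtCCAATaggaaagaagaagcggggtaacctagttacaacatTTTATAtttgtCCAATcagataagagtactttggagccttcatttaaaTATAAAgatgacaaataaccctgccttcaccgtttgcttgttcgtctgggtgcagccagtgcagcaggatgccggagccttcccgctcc
Hist1h1c, chr13:23738557-23738856, strand +: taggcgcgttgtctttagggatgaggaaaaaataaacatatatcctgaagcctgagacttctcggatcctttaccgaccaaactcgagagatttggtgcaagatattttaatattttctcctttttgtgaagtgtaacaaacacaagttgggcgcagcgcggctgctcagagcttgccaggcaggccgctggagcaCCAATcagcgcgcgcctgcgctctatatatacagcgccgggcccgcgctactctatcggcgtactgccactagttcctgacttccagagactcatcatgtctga
H3f3b, chr11:116024455-116024754, strand -: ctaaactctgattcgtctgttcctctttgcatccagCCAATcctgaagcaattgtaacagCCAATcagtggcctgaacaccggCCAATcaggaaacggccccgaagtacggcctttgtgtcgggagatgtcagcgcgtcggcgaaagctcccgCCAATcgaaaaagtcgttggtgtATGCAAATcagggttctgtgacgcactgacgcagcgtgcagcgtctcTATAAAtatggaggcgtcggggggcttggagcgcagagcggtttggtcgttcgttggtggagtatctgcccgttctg
Of the 80 members, 74 had a RefSeq promoter. CCAAT stood in 85.7% of 63 replication-dependent promoters against 37.4% of 32851 promoters of all genes, and in all of those of H1, H2A, H2B and H3 genes but in 3 of 12 of H4 genes. TATAAA stood in 55.6% against 13.6%, and the octamer in 22.2% against 1.74%, where all 14 replication-dependent promoters with it belong to H2A or H2B genes. The GC box stood in 38.1% against 35.7%. Among 12 variant promoters, 9 held CCAAT, 1 held TATAAA, 1 held the octamer and 7 held the GC box, and the promoter of H3f3b was the only one of them with TATAAA and with the octamer.

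Most replication-dependent genes gave few or no reads. No read was counted in any library for 16 of the 67, 26 gave 1 to 16 reads over all 16 libraries, and 14 more gave 17 or more but were too low to be tested in either tissue. The other 11 were tested in at least 1 tissue, 9 of them in both, and held 97.6% of the summed level of the class. Those not tested gave between 30 and 70 reads together per library. Of the variants, 10 were tested, and H2afb1, H2afb2 and H2afb3, H2A genes of the X chromosome, gave 0, 0 and 1 read. A count of 0 allows up to 3 counts in a library, for counting error only.

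The annotated end of the transcript went with the level. Of 23 replication-dependent genes whose longest coding transcript runs at least 100 bases past the stem-loop, 9 were tested and 1 had no read. In contrast, of 23 whose transcripts end within 100 bases of it, 0 were tested and 9 had no read, and their highest mean level was 0.0822 CPM. Of 4 genes with a long end and no stem-loop, 2 were tested, the H2B genes Hist1h2bc and Hist2h2be, and the 17 whose annotation stops near the stop codon held 0 tested genes and at most 0.0491 CPM. The signal AATAAA stood in the last 50 bases of 10 of the 23 genes that run past the stem-loop and of 3 of the 4 with a long end and no stem-loop, but of 1 of 23 that end near it and of 0 of 17 whose annotation stops at the coding sequence, against 68.4% of other protein-coding genes. The annotated end also sets which reads could be counted on a gene, and its part in these levels was not tested.

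**Figure D1:**
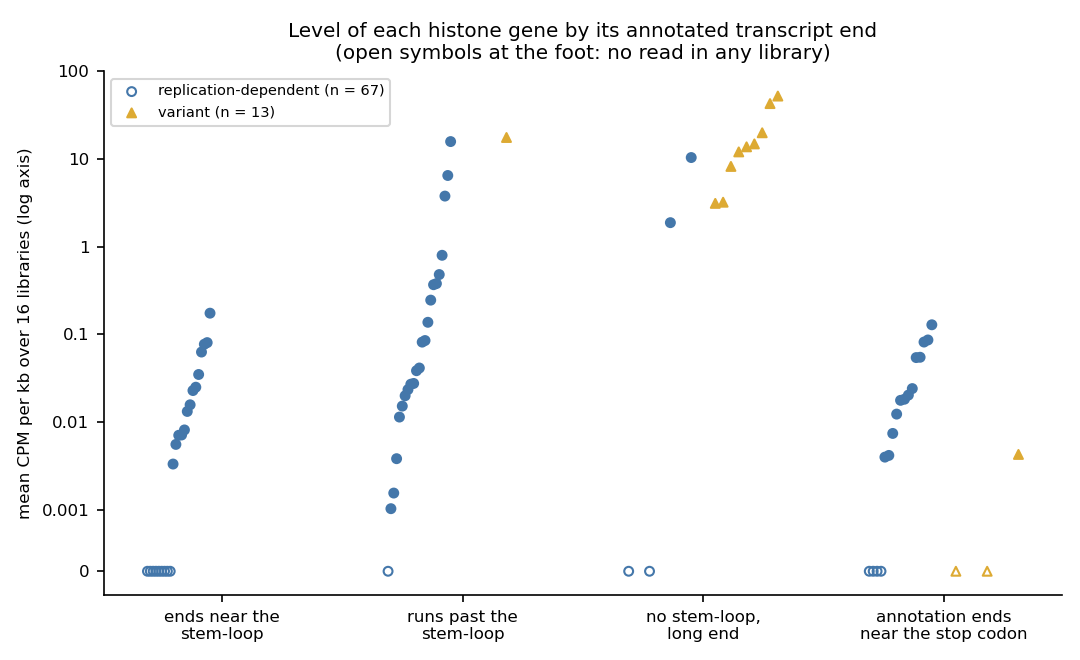
Mean CPM per kb of exonic length over 16 libraries for each of the 80 histone genes, on a log axis, by the annotated end of its coding transcripts, with blue circles for replication-dependent genes and yellow triangles for variants. Genes without a read are open symbols at the foot, and every replication-dependent gene above 1 CPM per kb runs past the stem-loop or has a long end without one.

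Near-identical copies also limit what could be counted, since only uniquely mapped reads were kept. Of the 67 replication-dependent genes, 5 have no window of 51 bases, the read length, that is absent from the transcripts of every other gene, and 34 have fewer than 50% of such windows. The median share was 75.3% among those tested and 40.3% among those not tested. It was 36.5% for Hist2h3c2, which is therefore uncertain, and at least 50.4% for the other genes tested. Hist3h2a shares 708 of its 2146 exonic bases with Trim17 on the same strand, and Hist1h2be shares 496 with Hist1h1e.

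Per kb of exonic length, the highest levels were those of variants. H3f3b, 1 of the 2 genes for the histone H3.3, was highest at a mean of 52.2 CPM per kb over 16 libraries (range 40.9 to 67.2), followed by H1f0, the linker histone H1.0 of differentiated cells, at 42.8 (36.7 to 49.7). Next came H2afy2, for macroH2A2, at 19.9 (16.5 to 25.7), H2afx, for the H2A.X that is phosphorylated at DNA breaks, at 17.7 (12.3 to 23.1), and the highest replication-dependent gene, Hist3h2ba, at 15.8 (10.2 to 22.6). Between H1f0 and H2afy2 the ranges did not overlap, whereas those of the other neighbours in this order did. H2afv (14.9), H1fx (13.8), H2afy (12.1), H2afj (8.23) and H2afz (3.22) followed among the variants. H3f3a, which encodes the same H3.3 protein as H3f3b, was at 3.12 CPM per kb (2.42 to 4.14). Of 51-base windows, 73.1% of those of H3f3a and 64.9% of those of H2afz were in no other gene, against 93.3% for H3f3b. The levels are of uniquely mapped reads, and the part of this limit in the order of the variants was not tested. Hist1h2bc (10.4), Hist3h2a (6.49), Hist1h1c (3.78) and Hist2h2be (1.88) came next among replication-dependent genes, and the rest were at or below the 0.799 of Hist1h4i. Replication-dependent genes held a median of 19.1% of the level per kb of all members in a library (14.1% to 21.8%), and 23.8% (17.4% to 27.2%) when length was counted in windows of 51 bases found in no other gene, for the 75 members with such a window.

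The summed level of the replication-dependent genes was lower in Trrap-FBΔ than in control libraries, and that of the variants was higher. Replication-dependent genes summed to 59.6, 56.7, 58.4 and 60.1 CPM in control cortices and to 54.4, 47.8, 53.6 and 44.2 CPM in Trrap-FBΔ cortices, in the order of mice given above. In the striatum the sums were 52.2, 55.99, 51.6 and 52.3 CPM in controls and 41.7, 42.2, 43.1 and 41.03 CPM in Trrap-FBΔ mice. The groups did not overlap in either tissue, and the log2 ratio of Trrap-FBΔ to control means was -0.23 for cortices and -0.34 for striata. Without the TMM factors the ratios were -0.16 and -0.25, and without Hist3h2a, the most abundant of these genes by CPM, they were -0.12 and -0.22, so that this gene carried much of the difference. Under both settings the cortical groups overlapped, with Trrap-FBΔ mouse 57 at 53.7 CPM against 53.6 CPM in control mouse 58 without the factors, and at 40.7 CPM against 38.8 CPM without Hist3h2a, whereas the striatal groups remained apart. Hist3h2a and its neighbour Hist3h2ba together had means of 32.1 CPM in control and 22.4 CPM in Trrap-FBΔ cortices. This fall was larger than that of the whole class, so that the mean sum of the other replication-dependent genes was not lower in Trrap-FBΔ cortices. In striata the means of the pair were 24.5 and 15.5 CPM, a fall smaller than that of the whole class. Variants summed to means of 436 ± 6.13 and 457 ± 6.51 CPM (SD, n = 4 each) in control and Trrap-FBΔ cortices, and of 452 ± 9.41 and 520 ± 3.23 in striata. The replication-dependent share of all histone CPM was thus 11.9 ± 0.350% in control and 9.87 ± 0.891% in Trrap-FBΔ cortices, and 10.5 ± 0.346% and 7.48 ± 0.167% in striata, as a description without a test. The variant sums lean on the 3 variants with the highest CPM. In control and Trrap-FBΔ cortices these had means of 130 and 146 (H3f3b), 80.4 and 92.2 (H1f0) and 71.6 and 80.1 CPM (H2afy). They were also higher in Trrap-FBΔ striata. In contrast, H2afx was lower in both tissues and H2afy2 and H2afz were lower in the cortex, so that the higher sum was not a rise of the whole class.

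**Figure D2:**
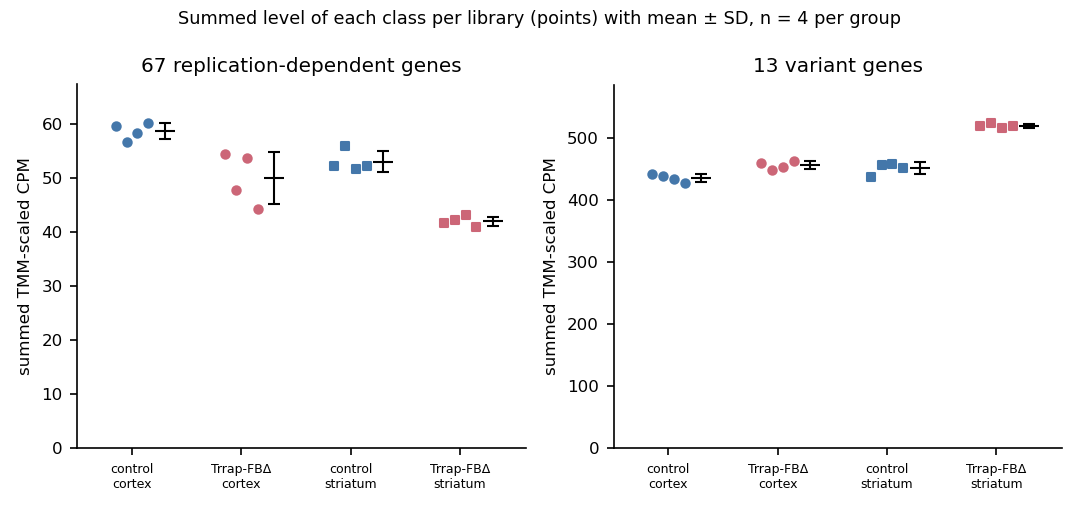
Summed TMM-scaled CPM of the 67 replication-dependent genes (left) and the 13 variants (right) in each library, with mean ± SD beside the points (n = 4 per group). Replication-dependent sums are lowest in Trrap-FBΔ striata, between 41.0 and 43.1 CPM, where variant sums are highest, between 516 and 524 CPM.

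In the cortex, 11 of the 19 members tested passed the threshold (57.9%), against 33.3% of all 18268 genes tested. Of these, 4 were higher in Trrap-FBΔ libraries, Hist1h1c, H1f0, H3f3b and H2afy, where 15.7% of all genes were higher, and 7 were lower, Hist3h2a, Hist3h2ba, Hist2h4, Hist2h3c2, H2afx, H2afy2 and H2afz, where 17.6% were lower. In the striatum, 8 of 21 passed (38.1%), against 30.2% of 18872 genes, with the same 4 higher (14.4% of all genes) and Hist3h2a, Hist3h2ba, Hist2h4 and H2afx lower (15.8%). For cortex and striatum respectively, the median log2 fold change was -0.25 and -0.42 over the replication-dependent genes tested, 0.06 and 0.08 over the variants, and 0.00 and -0.01 over all genes. In these bulk samples, fewer cells of a type and less RNA per cell cannot be told apart.

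The neighbours Hist3h2a and Hist3h2ba, an H2A and an H2B gene, fell in both tissues. Hist3h2a (ENSMUSG00000078851, chromosome 11, 58954685 to 58956830, GRCm38) was at 20.7, 17.9, 17.4 and 19.95 CPM in control and 13.7, 12.5, 14.2 and 13.2 CPM in Trrap-FBΔ cortices. It was at 14.3, 15.1, 13.6 and 14.9 CPM in control and 9.30, 8.63, 9.23 and 8.45 CPM in Trrap-FBΔ striata. Every Trrap-FBΔ library lay below every control library of its tissue, and the log2 fold change was -0.50 (SE 0.0751, adjusted p = 0.000550) in the cortex and -0.70 (SE 0.0664, adjusted p = 0.000155) in the striatum. Groups without overlap were seen for 32.7% of all genes in the cortex and 31.6% in the striatum. Trim17, which shares bases with Hist3h2a, rose in the cortex by 0.25 (adjusted p = 0.0428) and was at 0.11 in the striatum (adjusted p = 0.668).

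Hist3h2ba (ENSMUSG00000056895, chromosome 11, 58948920 to 58949533) was at 13.9, 12.4, 13.5 and 12.8 CPM in control and 10.1, 7.79, 9.01 and 9.13 CPM in Trrap-FBΔ cortices. In striata it was at 9.04, 12.02, 10.4 and 8.64 CPM in control and 6.54, 6.26, 6.37 and 7.33 CPM in Trrap-FBΔ mice. Again no library of one genotype reached the other within a tissue. Its log2 fold changes were -0.54 (SE 0.0849, adjusted p = 0.000721) and -0.60 (SE 0.111, adjusted p = 0.00328). Both genes kept their calls with each library left out.

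**Figure D3:**
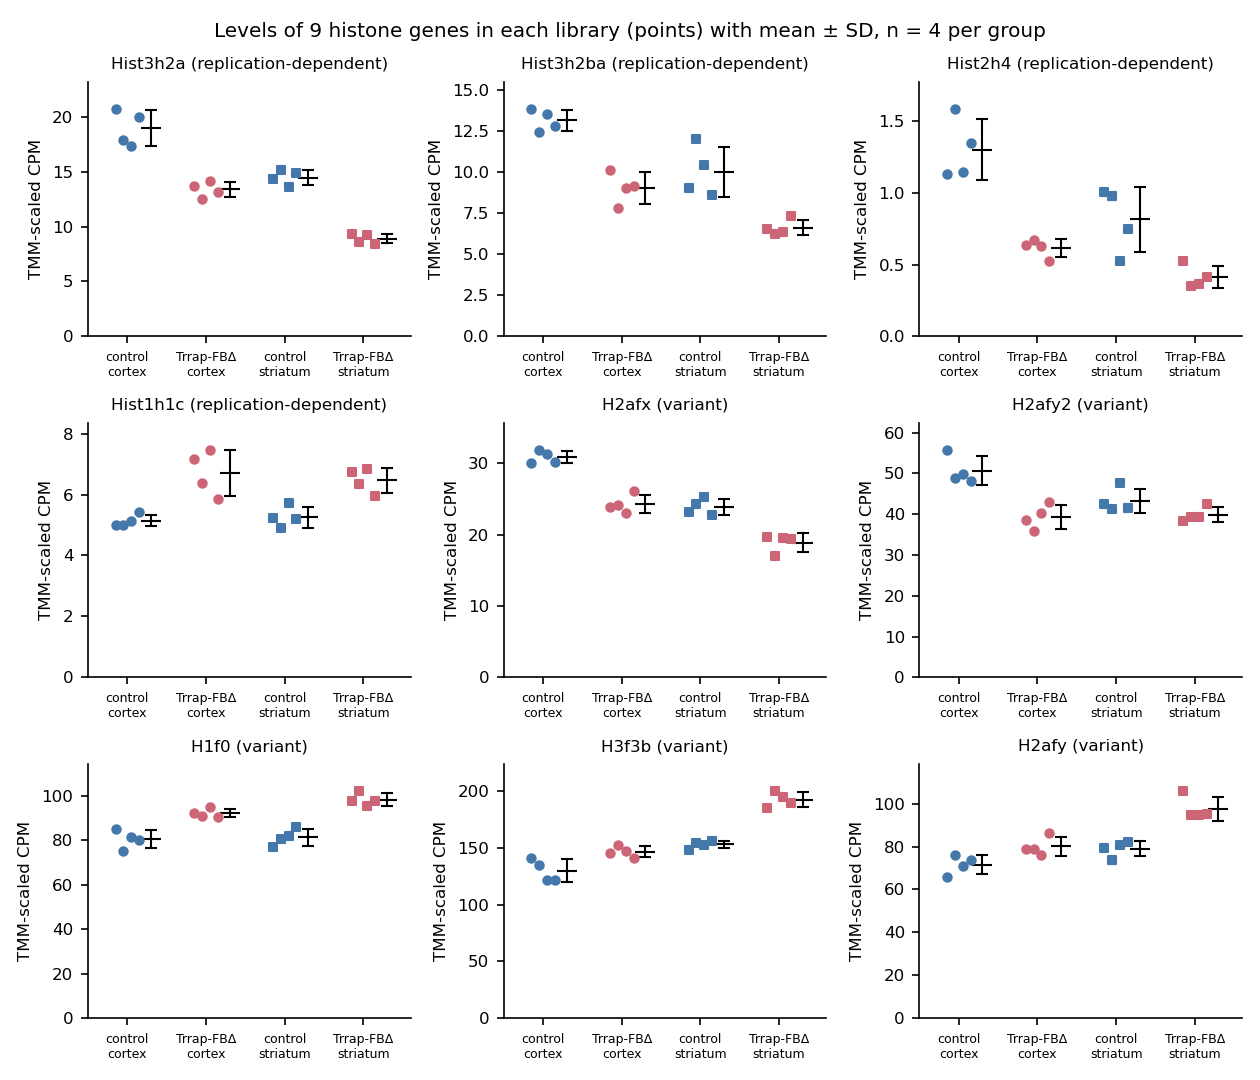
TMM-scaled CPM of 9 histone genes in each library of the 4 groups, with mean ± SD beside the points (n = 4); each axis starts at 0. Hist3h2a, Hist3h2ba, Hist2h4 and H2afx are lower in both Trrap-FBΔ groups, H2afy2 in the cortex, and Hist1h1c, H1f0, H3f3b and H2afy are higher.

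Of the H4 genes, Hist2h4 passed the test in both tissues and Hist1h4i in neither. Hist2h4 (ENSMUSG00000091405, chromosome 3, 96261682 to 96263311) gave 14 to 67 reads a library, which came to 1.13, 1.59, 1.14 and 1.34 CPM in control and 0.637, 0.670, 0.627 and 0.521 CPM in Trrap-FBΔ cortices. Striata held 1.01, 0.980, 0.526 and 0.750 CPM in controls and 0.521, 0.353, 0.362 and 0.412 CPM in Trrap-FBΔ mice, where the lowest control and the highest Trrap-FBΔ library lay side by side. The log2 fold change was -1.10 (SE 0.179, adjusted p = 0.000951) in the cortex and -0.97 (SE 0.243, adjusted p = 0.0134) in the striatum, called with each library left out. Hist1h4i was at a mean of 0.631 ± 0.0700 CPM in control and 0.465 ± 0.170 CPM in Trrap-FBΔ striata (-0.42, SE 0.269, adjusted p = 0.258).

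The H3 gene Hist2h3c2 (ENSMUSG00000081058, chromosome 3, 96238108 to 96239127) was called in the cortex on 6 to 40 reads a library. It was at 0.804, 0.946, 0.364 and 0.439 CPM in control and 0.378, 0.168, 0.444 and 0.146 CPM in Trrap-FBΔ cortices, which overlapped (-1.17, SE 0.410, adjusted p = 0.0469). In striata its means were 0.350 ± 0.119 and 0.279 ± 0.0179 CPM (-0.30, adjusted p = 0.447). The cortical call was lost without control mouse 55 or 58, without Trrap-FBΔ mouse 57, 59 or 61, with sex as a covariate (adjusted p = 0.0877) and with upper-quartile scaling (0.0511).

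Hist1h1c, a linker histone gene for H1.2, was the 1 replication-dependent gene that rose, in both tissues. It (ENSMUSG00000036181, chromosome 13, 23738808 to 23740367) was at 5.01, 5.02, 5.14 and 5.43 CPM in control and 7.17, 6.37, 7.47 and 5.84 CPM in Trrap-FBΔ cortices. In striata it was at 5.23, 4.90, 5.73 and 5.18 CPM in controls and 6.76, 6.36, 6.83 and 5.94 CPM in Trrap-FBΔ mice, without overlap of the genotypes in either tissue. The log2 fold change was 0.38 (SE 0.0964, adjusted p = 0.0109) in the cortex and 0.30 (SE 0.0855, adjusted p = 0.0240) in the striatum. The striatal call was lost without Trrap-FBΔ mouse 57 or 60 or control mouse 65, with adjusted p between 0.0530 and 0.0689.

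The remaining replication-dependent genes tested did not pass in either tissue. Hist1h2bc and Hist2h2be, the H2B genes with long ends and no stem-loop, had log2 fold changes of 0.07 (SE 0.140) and 0.11 (SE 0.0901) in the cortex and of -0.20 (SE 0.101) and -0.09 (SE 0.129) in the striatum. Hist1h2bc ranged from 8.76 to 14.4 CPM and Hist2h2be from 4.19 to 6.48 CPM over all 16 libraries, and the genotypes overlapped in each tissue. For Hist1h2be, Hist1h2bg and Hist1h3d, each with at most 66 reads in a library, the striatal log2 fold changes were -0.39, -0.77 and -0.46, with SE of 0.194, 0.373 and 0.386. With standard errors of this size a change in these genes was not excluded, and no limit of detection was computed.

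Both H3.3 genes are variants that replace H3 outside S phase, and only H3f3b, the one with the higher counted level, passed the test. H3f3b (ENSMUSG00000016559, chromosome 11, 116021912 to 116027962) was at 141, 135, 122 and 122 CPM in control and 145, 152, 147 and 141 CPM in Trrap-FBΔ cortices, with control mouse 55 just above Trrap-FBΔ mouse 61. In striata it was at 148, 154, 152 and 156 CPM in control and 185, 200, 195 and 189 CPM in Trrap-FBΔ mice, without overlap. It rose by a log2 fold change of 0.17 (SE 0.0559, adjusted p = 0.0334) in the cortex and 0.33 (SE 0.0427, adjusted p = 0.000549) in the striatum. The cortical call was lost with sex as a covariate (adjusted p = 0.0667) and without Trrap-FBΔ mouse 59 or 60 or control mouse 63 or 64 (0.0743 to 0.103). H3f3a had means of 9.75 ± 0.650 and 10.1 ± 1.14 CPM in control and Trrap-FBΔ cortices and of 11.5 ± 0.772 and 12.4 ± 1.73 CPM in striata, with log2 fold changes of 0.06 (95% interval -0.13 to 0.24) and 0.11 (-0.09 to 0.31).

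Of the linker variants, H1f0 rose in both tissues. H1f0 (ENSMUSG00000096210, chromosome 15, 79028450 to 79030504) was at 85.1, 75.3, 81.5 and 79.9 CPM in control and 92.4, 91.1, 94.8 and 90.5 CPM in Trrap-FBΔ cortices. Striatal levels were 76.8, 80.6, 82.1 and 86.00 CPM in controls and 97.4, 102, 95.3 and 97.6 CPM in Trrap-FBΔ mice. The genotypes did not overlap in either tissue, and the log2 fold change was 0.20 (SE 0.0467, adjusted p = 0.00787) in the cortex and 0.27 (SE 0.0464, adjusted p = 0.00227) in the striatum, called with each library left out. H1fx, for the linker histone H1X, had overlapping groups and log2 fold changes of 0.22 (SE 0.137, adjusted p = 0.251) and 0.29 (SE 0.108, adjusted p = 0.0695). It passed in the striatum with DESeq2 (adjusted p = 0.0432) and without Trrap-FBΔ mouse 59 (0.0276).

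The 2 macroH2A genes, whose products carry a large additional domain and are found on silent chromatin, moved apart in the cortex. H2afy (macroH2A1, ENSMUSG00000015937, chromosome 13, 56073619 to 56136361) was at 65.9, 75.97, 71.00 and 73.7 CPM in control and 79.04, 78.8, 76.1 and 86.4 CPM in Trrap-FBΔ cortices, and at 79.4, 73.96, 80.7 and 82.03 CPM in control and 106, 94.6, 94.8 and 94.9 CPM in Trrap-FBΔ striata. It rose without overlap in both tissues, by 0.16 (SE 0.0540, adjusted p = 0.0399) and 0.30 (SE 0.0531, adjusted p = 0.00240), but only 2 of 8 fits that left out a cortical library kept the call there, against 8 of 8 in the striatum. The cortical call was also lost with sex as a covariate (adjusted p = 0.0600) and without the filter on low counts (0.0667). H2afy2 (macroH2A2, ENSMUSG00000020086, chromosome 10, 61738665 to 61784147) was at 55.8, 48.8, 49.97 and 48.1 CPM in control and 38.5, 35.96, 40.4 and 42.9 CPM in Trrap-FBΔ cortices, a fall without overlap (-0.36, SE 0.0679, adjusted p = 0.00213). In striata it was at 42.6, 41.3, 47.6 and 41.5 CPM in control and 38.4, 39.4, 39.2 and 42.6 CPM in Trrap-FBΔ mice, which overlapped (-0.12, SE 0.0598, adjusted p = 0.170).

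H2afx, the variant with a stem-loop, was lower in both tissues. Its annotated transcript runs 822 bases past the stem-loop. It (ENSMUSG00000049932, chromosome 9, 44334694 to 44336077) was at 30.1, 31.9, 31.4 and 30.2 CPM in control and 23.96, 24.2, 23.1 and 26.1 CPM in Trrap-FBΔ cortices, and at 23.2, 24.3, 25.2 and 22.8 CPM in control and 19.7, 16.96, 19.5 and 19.5 CPM in Trrap-FBΔ striata. The genotypes did not overlap, with log2 fold changes of -0.35 (SE 0.0559, adjusted p = 0.000882) and -0.34 (SE 0.0651, adjusted p = 0.00407), called with each library left out.

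H2A.Z, which marks promoters and is exchanged into chromatin by the SRCAP and Tip60 complexes, is encoded by H2afz and H2afv. H2afz was at 6.22, 6.79, 6.44 and 6.54 CPM in control and 5.40, 4.75, 5.38 and 5.34 CPM in Trrap-FBΔ cortices, without overlap (-0.32, SE 0.0809, adjusted p = 0.0112). In striata it was at 5.10, 8.15, 6.39 and 5.86 CPM in control and 4.02, 4.59, 4.88 and 5.59 CPM in Trrap-FBΔ mice, which overlapped (-0.42, SE 0.150, adjusted p = 0.0569), and passed the threshold there with DESeq2 (0.0321), without the filter on low counts (0.0480), without control mouse 58 (0.0273) or Trrap-FBΔ mouse 61 (0.0455), with sex as a covariate (0.0434) and in the fit of all 16 libraries (0.0146), while the last took the cortical call to 0.0593. H2afv, at means between 21.5 and 27.1 CPM in the 4 groups, had log2 fold changes of 0.05 (95% interval -0.09 to 0.20) and 0.04 (-0.12 to 0.20). H2afj, at means between 12.4 and 17.7 CPM, had changes of -0.10 (95% interval -0.39 to 0.19) and -0.14 (-0.37 to 0.09), and neither passed the test.

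**Figure D4:**
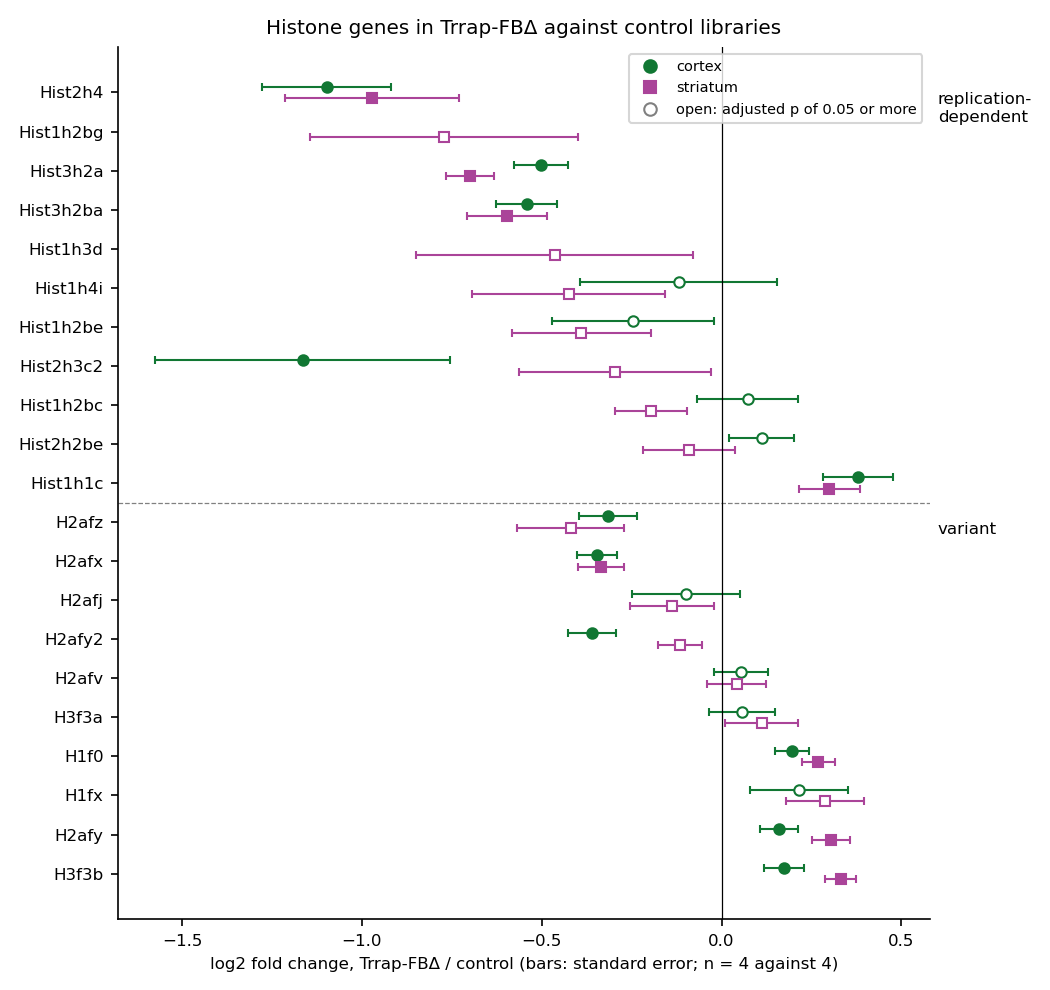
Log2 fold change of Trrap-FBΔ over control libraries with its standard error (edgeR, 4 against 4) for the 21 members tested in at least 1 tissue, in the cortex (green circles) and the striatum (purple squares); filled symbols passed an adjusted p of 0.05. Hist2h4, Hist3h2a, Hist3h2ba and H2afx lie below 0 and Hist1h1c, H1f0, H2afy and H3f3b above it with filled symbols in both tissues.

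The effect of the genotype did not differ detectably between the tissues for any member. By edgeR's interaction test over 16 libraries, 0 of 22 members passed, against 0.437% of all genes, 2 had an unadjusted p under 0.05, and DESeq2 also called 0. These 2 were H2afy2, with a difference of 0.24 (striatum less cortex, SE 0.0916, adjusted p = 0.276), and H3f3b, with 0.16 (SE 0.0688, adjusted p = 0.363). For Hist3h2a the difference was -0.20 (SE 0.0949, adjusted p = 0.416). For H2afz and Hist2h3c2, whose calls differ between the tissues as that of H2afy2 does, the differences were -0.10 (SE 0.174) and 0.87 (SE 0.532). The different calls for these genes therefore do not show a difference between the tissues, but with standard errors of this size the test did not exclude one.

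Between the tissues, 8 of 21 members tested differed in control mice (38.1%), against 40.4% of all genes, and 9 of 20 in Trrap-FBΔ mice (45.0%), against 54.7%. The shares were near or below those of all genes. Higher in the striatum were 3 members in controls, where 20.3% of all genes were higher, and 4 in Trrap-FBΔ mice (27.4%), whereas 5 were lower in each (20.1% and 27.4%). With upper-quartile scaling, 6318 of 10444 genes called in Trrap-FBΔ mice were higher in the striatum, against 5166 of 10329 with TMM.

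Hist3h2a, Hist3h2ba, Hist2h4 and H2afx were lower in the striatum than in the cortex of both genotypes. Hist3h2a differed by -0.39 (SE 0.0746, adjusted p = 0.00209) in control and -0.59 (SE 0.0680, adjusted p = 1.55e-05) in Trrap-FBΔ mice, Hist3h2ba by -0.39 and -0.45 (adjusted p = 0.0116 and 0.00148), and H2afx by -0.37 and -0.36 (adjusted p = 0.000437 and 0.000473). Hist2h4 differed by -0.68 and -0.56 (adjusted p = 0.0293 and 0.0306). This call was lost in controls with the mouse as a block (adjusted p = 0.0714), a fit in which mice 55 and 65 carry no weight because each gave 1 tissue, and without 4 single libraries, and in Trrap-FBΔ mice with upper-quartile scaling (0.0530), without the filter on low counts (0.0816), with DESeq2 (0.121) and without 6 single libraries. Comparisons of genotypes and of tissues share libraries, so that their values are given side by side only.

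H3f3b, H3f3a and H2afv were higher in the striatum of both genotypes. H3f3b differed by 0.24 (SE 0.0591, adjusted p = 0.00900) in control and 0.39 (SE 0.0421, adjusted p = 8.50e-06) in Trrap-FBΔ mice, and H2afv by 0.30 and 0.28 (adjusted p = 0.0150 and 0.00576). H3f3a differed by 0.24 and 0.29 (adjusted p = 0.0332 and 0.0413), with 3 of 8 fits without a library keeping the call in each genotype. H2afz, the other H2A.Z gene, did not pass in either (-0.02 and -0.13).

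H2afy, H2afj and H2afy2 passed in 1 genotype each, and none of them passed the interaction test above. H2afy was higher in the striatum of Trrap-FBΔ mice (0.28, adjusted p = 0.000576) and at 0.14 in controls (adjusted p = 0.0705). H2afj was lower in Trrap-FBΔ striata (-0.43, adjusted p = 0.0126) and at -0.38 in controls (adjusted p = 0.0566, and 0.00541 with the mouse as a block). H2afy2 was lower in control striata (-0.22, adjusted p = 0.0232, and 0.116 with the block) and at 0.02 in Trrap-FBΔ striata. With the block, H1fx passed in both genotypes, at -0.35 in controls (adjusted p = 0.0140) and -0.25 in Trrap-FBΔ mice (0.0108), and Hist2h2be in controls, at 0.38 (0.0347).

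**Figure D5:**
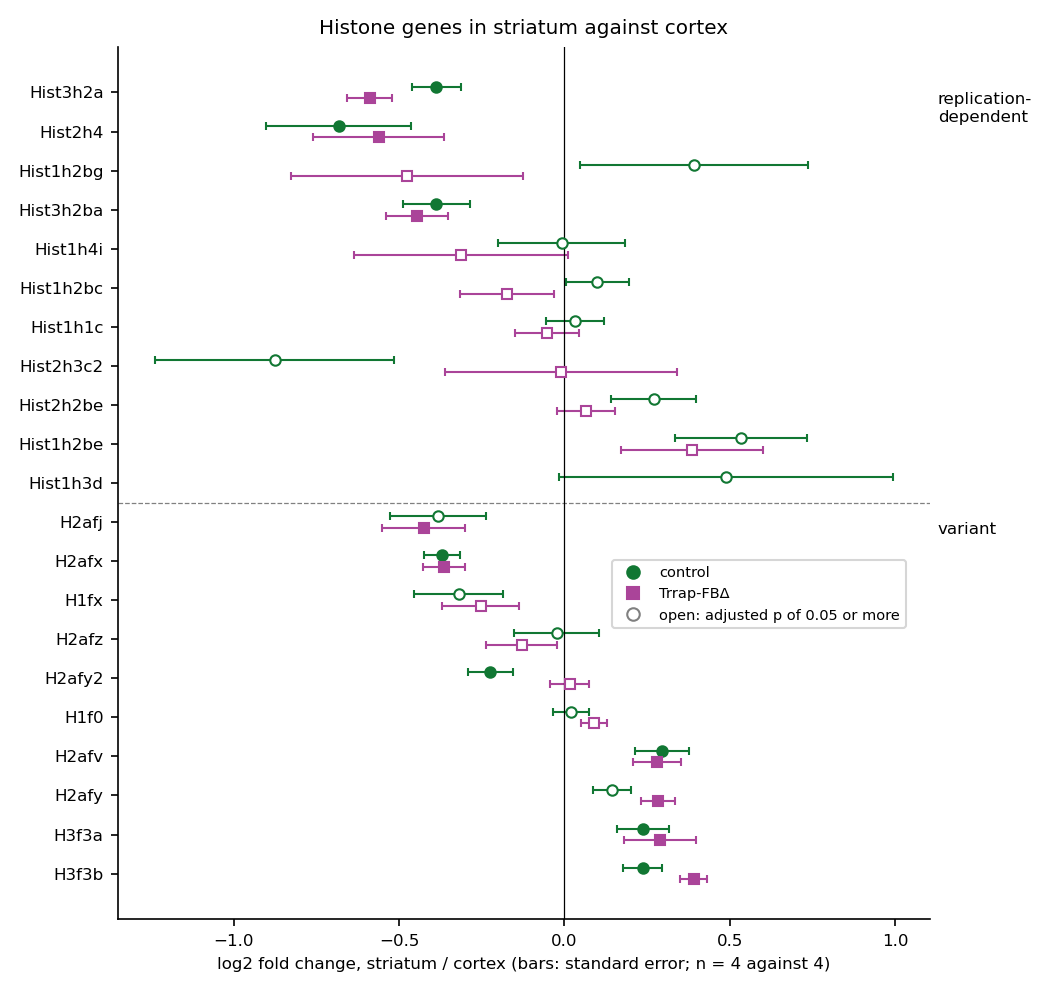
Log2 fold change of striatum over cortex with its standard error (edgeR, 4 against 4) for the members tested, in control (green circles) and Trrap-FBΔ (purple squares) mice; filled symbols passed an adjusted p of 0.05. Hist3h2a, Hist3h2ba, Hist2h4 and H2afx lie below 0 and H2afv, H3f3a and H3f3b above it in both genotypes.

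Genes that process histone mRNA or carry histones were described from lists chosen beside the members. Their counts are read against the 33.3% (cortex) and 30.2% (striatum) of all genes that were called. Of 16 genes of histone mRNA processing, 2 rose and 1 fell in the cortex and 3 rose and 1 fell in the striatum, both below that share. Lsm11, a subunit of the U7 RNP, fell in both (-0.69 and -0.80, adjusted p = 7.86e-05 and 0.000206), and Gon4l (0.23 and 0.28) and Cpsf3, the endonuclease that cuts the mRNA (0.16 and 0.20), rose in both. Slbp itself had log2 fold changes of -0.12 (adjusted p = 0.191) and -0.10 (0.244), and Npat, the coactivator of replication-dependent histone genes, of 0.04 (0.671) and -0.05 (0.503).

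Of 11 chaperones and helpers of H3 and H4 at replication, 3 fell in both tissues, the histone-binding protein Nasp (-0.49 and -0.37), Tonsl (-0.47 and -0.47) and the importin Ipo4 (-0.31 and -0.17), and 0 rose at an adjusted p under 0.05. Of 6 chaperones of H3.3, Hira and Daxx fell in the cortex and 0 passed in the striatum by edgeR. Hira, which deposits H3.3 outside S phase, was at -0.25 in cortices (adjusted p = 0.0319) and at -0.16 in striata (0.0950) on the log2 scale. Of 18 chaperones and remodellers of H2A and H2B, 2 rose and 3 fell in the cortex and 6 rose and 3 fell in the striatum, among them Znhit1, a subunit of the SRCAP complex (-0.44 and -0.53), Nap1l2, a chaperone of neurons (-0.36 and -0.46), and Yeats4 (0.29 and 0.36), past the threshold in both. Of these lists, the share called with both directions together was above that of all genes for the H2A and H2B list in the striatum. It was near or below it otherwise.

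Genes of mitosis fell with the genotype. Of 12 genes of the G2 and M phases, 11 fell in each tissue, among them Ccnb1 (-0.97 and -0.92), Nusap1 (-0.99 and -0.85) and Top2a (-0.90 and -0.88), and their summed level was between 98.7 and 116 CPM in control and 61.4 and 68.8 CPM in Trrap-FBΔ cortices, and between 117 and 147 and 72.0 and 85.1 CPM in striata. Of 28 genes of the S phase, 8 fell and 1 rose in each tissue, with median log2 fold changes of -0.09 and -0.17. With both directions together, this share was near that of all genes called. By direction, 17.6% of all genes fell and 15.7% rose in the cortex, and 15.8% and 14.4% in the striatum. The called S phase genes thus leaned towards a fall. Those that fell in both included Cdc6 (-0.64 and -0.84), Rrm2 (-0.62 and -0.75) and Tk1 (-0.55 and -0.69), and the gene that rose was Pole. In cortex and striatum respectively, 6 and 5 of 6 microglial markers fell, as did 6 and 3 of 7 markers of oligodendrocyte precursors. For immature neurons 4 and 3 of 7 fell (1 more, Igfbpl1, rose in the cortex), and for endothelial cells 5 and 1 of 6. Of subventricular progenitor markers, 2 of 7 fell in each tissue. These counts stand beside the 17.6% (cortex) and 15.8% (striatum) of all genes that fell. Markers of mature oligodendrocytes fell in the cortex (5 of 5) and 0 of 5 passed in the striatum, 2 of 5 astrocyte markers rose in each tissue and 2 fell in the cortex, and 0 of 6 blood and 0 of 4 choroid plexus markers passed in either. No defining marker of these cell types was at 0 in any group. The part of these cells, and of the cortical markers that were lower in Trrap-FBΔ striata, in the histone levels was not tested.

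Listed RNAs that carry no poly(A) tail were nearly absent from the libraries. Of 14 such entries in the table, for 13 symbols, 7 or 8 were at 0, including the RNAs of RNase MRP, RNase P and the U7 RNP, in every library of a group, and together they summed to between 0.322 and 1.17 CPM in a library. Whether the lack of a tail, the restriction to uniquely mapped reads or another step set these counts was not tested.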

How the data were processed

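RNA was taken from whole cortex or striatum with an RNeasy Lipid kit, libraries were made with the TruSeq Stranded mRNA kit, which selects poly(A) RNA, and were sequenced for 51 cycles from a single end. The authors converted reads with bcl2fastq 1.8.4, aligned them to GRCm38 with STAR 2.5.4b, and deposited a table of raw read counts per Ensembl gene from featureCounts 1.5.0, made from uniquely mapped reads with strand. Reads from near-identical histone copies are therefore lost, and intact ends without a poly(A) tail are selected against.

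From these counts, edgeR 4.0.16 in R 4.3.3 (filterByExpr, TMM, quasi-likelihood test, two-sided, Benjamini-Hochberg over all genes tested) compared genotypes within each tissue, tissues within each genotype, and their interaction over 16 libraries. DESeq2 1.42.0 was an alternative. The test was checked on simulated counts. CPM used TMM factors over all libraries, and lengths, ends and stem-loops came from GENCODE release M21, so that coordinates are those of GRCm38. Promoters came from RefSeq. Members and gene lists were chosen with earlier results of these data known. Named were all variants and the 7 replication-dependent genes that passed in both tissues, were among the 5 with the largest called change in a tissue or were among the 5 highest per kb, at most 3 genes per list that passed in both tissues, and Slbp, Npat and Hira. Other genes were named after their values were seen. Mice, not members, are the replicates. The 2 tissues of 7 mice were paired by the mouse numbers in the labels. Deviations from group means correlated between tissues of 1 mouse at r of 0.121 to 0.365, and between different mice at -0.265 to 0.130.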

Additional observations from a re-analysis of the deposited data

Results flagged for a closer look

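In 8 of 76 groups of 4 libraries, 1 library stood apart from the other 3 by Dixon's test at the 95% level, which chance alone does in about 1 of 20 groups. In control striata, mouse 65 had an H1fx level of 11.4 CPM, with the nearest library at 14.2 CPM, and mouse 63 had a summed replication-dependent level of 56.0 CPM, with the nearest at 52.3 CPM. In control cortices, mouse 55 had 10.7 CPM of H3f3a (nearest 9.54 CPM) and mouse 58 had 4.19 CPM of Hist2h2be (nearest 4.54 CPM). In Trrap-FBΔ striata, mouse 59 had 16.96 CPM of H2afx (nearest 19.5 CPM) and 4.59 CPM of Hist2h2be (nearest 5.16 CPM), and mouse 57 had 106 CPM of H2afy (nearest 94.9 CPM). In Trrap-FBΔ cortices, mouse 59 had 4.75 CPM of H2afz (nearest 5.34 CPM). The causes were not tested.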

How the results depend on the processing

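No named member reversed a called direction under any alternative run, and of the values for single members, 764 of those without 1 library and 595 of the others kept their side of the threshold, 40 and 14 lost it and 12 and 17 gained it. The number of members called higher in the cortex was 2 with sex as a covariate, against 4. For tissues, it was 5 with upper-quartile scaling in controls, against 3, and 7 without a filter on low counts in Trrap-FBΔ mice, against 4. The log2 ratio of summed replication-dependent levels was -0.16 for cortices and -0.25 for striata without normalization factors, and -0.12 and -0.22 without Hist3h2a, against -0.23 and -0.34, with overlap of the cortical groups under both, and the mean replication-dependent share per kb was 22.9% in 51-base windows of no other gene, a setting chosen after seeing the data, against 18.4%. The causes were not tested.

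Without 1 library, members called ranged from 8 to 10 in the cortex (higher 2 to 4, lower 6 to 7), from 7 to 9 in the striatum (3 to 5 and 4 to 5), from 6 to 10 between tissues of controls (2 to 4 and 3 to 7) and from 7 to 9 in Trrap-FBΔ mice (3 to 4 and 4 to 6). The count higher in the cortex was 2 without Trrap-FBΔ mouse 59 or control mouse 63 or 64, and the count lower in control striata was 3 without striatum 65. With the mouse as a replicate block, pairing the tissues, 9 members differed in controls, 10 in Trrap-FBΔ mice and 0 in the interaction, and calls other than those given above were kept. Interaction counts were 0 by edgeR under every setting and by DESeq2. Per-kb levels over windows found once in the genome were not computed, since no genome sequence was used here. Depth limits the low genes, of which those not tested gave 30 to 70 reads together in a library.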
